A study of Mus musculus with 24 samples.

Results

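The 8 genes described here make, store and break down liver glycogen: 3 genes for subunits that target protein phosphatase 1 to glycogen (Ppp1r3g, Ppp1r3b and Ppp1r3c), 3 for enzymes of synthesis (Ugp2, Gys2 and Gbe1) and 2 for breakdown (Pygl and Phka2). They were taken by gene symbol from a table of 23240 genes measured by RNA sequencing in mouse liver. Each symbol had 1 row, and all 8 were among the 13773 genes with enough reads to be tested.

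Glycogen is the glucose store of hepatocytes, filled after feeding and emptied in fasting. Ugp2 makes UDP-glucose, from which glycogen synthase (Gys2 in liver) builds chains that the branching enzyme Gbe1 branches. Glycogen phosphorylase (Pygl in liver) removes glucose from the chains once phosphorylase kinase, whose liver alpha subunit is Phka2, has phosphorylated it. The Ppp1r3 proteins hold protein phosphatase 1 on glycogen, where it activates the synthase and inactivates the phosphorylase by removing phosphate. Their RNA levels are known to respond to feeding and to hormones.

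All 24 mice were females of the NSG strain, which lacks T, B and NK cells, with an age of 8 weeks in the labels. Each received tail-vein injections 2 times a week for 5 weeks, with the liver collected 2 days after the final injection. The groups of 6 received about 10 µg of extracellular vesicles (EVs, the membrane particles that cells release) per injection, labelled as from MCF10A/miR-122 cells, from MDA-MB-231 cells (a human breast cancer line) or from MCF10A cells (a human breast epithelial line that forms no tumours), or phosphate-buffered saline (PBS). The labels do not say how the MCF10A/miR-122 cells were made, nor whether the mice were fed when the liver was taken, and no untreated group was analysed here.

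The library names go against the labels for 12 libraries. Those labelled MCF10A/miR-122 EV carry the MDA-MB-231 vesicles in their library names, and those labelled MDA-MB-231 EV carry the MCF10A/miR-122 vesicles, so a swap of the identities would exchange these 2 groups in every result below. They are called the labelled MCF10A/miR-122 EV and labelled MDA-MB-231 EV livers throughout. The libraries also fell into 2 sets that follow the groups. Serpina3a, which encodes an inhibitor of serine proteases, had 0.285 to 5.85 CPM (counts per 1000000 scaled counts) in these 12 libraries, against 109.6 to 325 CPM in the 12 MCF10A EV and PBS libraries. The first principal component, with 23.01% of the variance, ran from 8.89 to 30.8 in these 12 libraries and from -27.1 to -8.10 in the MCF10A EV and PBS libraries. Library totals were 26819650 to 33732639 counts in these 12 libraries and 21336818 to 29268884 counts in the MCF10A EV and PBS libraries. Each group lay wholly in 1 set. In the 4 comparisons between sets, treatment and set cannot be told apart. Those within a set are MCF10A EV with PBS and labelled MDA-MB-231 EV with labelled MCF10A/miR-122 EV. Hepatocyte markers were abundant in every library, with 12 genes summing to 119258 to 168319 CPM, and 6 lymphocyte markers summed to at most 0.169 CPM.

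Compared with PBS livers, Ppp1r3g RNA rose 13.3-fold (8.06-fold without replicate 3, which stood apart) in livers labelled MCF10A/miR-122 EV and 7.11-fold in livers labelled MDA-MB-231 EV (n = 6 livers each). In the livers labelled MCF10A/miR-122 EV, Ppp1r3b, Gys2 and Ugp2 RNA also rose and Ppp1r3c RNA fell. The rises of Ppp1r3b, Gys2 and Ugp2 did not pass the test with only the 12 libraries compared in the fit. They were also lost in 1, 6 and 10, in that order, of the 12 fits that left out 1 library. In these comparisons with PBS, treatment and set cannot be told apart. Pygl, Gbe1 and Phka2 passed the test in no comparison.

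The upstream sequences of Ppp1r3g and Ppp1r3c are printed because these genes had the largest fitted changes of the 8 over PBS, in opposite directions. They are the 250 bases before the RefSeq start on GRCm38.p6, at chr13:35967656-35967905 on the plus strand and chr19:36736605-36736854 on the minus strand, in lower case. In Ppp1r3g the capitals mark TGACG, the short form of the cAMP response element, 40 bases before the start. In Ppp1r3c they mark the E-box CACGTG, 104 bases before the start.

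Ppp1r3g: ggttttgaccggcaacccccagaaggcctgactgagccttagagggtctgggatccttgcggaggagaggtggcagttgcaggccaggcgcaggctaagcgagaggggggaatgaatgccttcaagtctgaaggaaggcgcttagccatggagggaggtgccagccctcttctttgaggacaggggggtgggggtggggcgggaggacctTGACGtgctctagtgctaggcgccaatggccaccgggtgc

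Ppp1r3c: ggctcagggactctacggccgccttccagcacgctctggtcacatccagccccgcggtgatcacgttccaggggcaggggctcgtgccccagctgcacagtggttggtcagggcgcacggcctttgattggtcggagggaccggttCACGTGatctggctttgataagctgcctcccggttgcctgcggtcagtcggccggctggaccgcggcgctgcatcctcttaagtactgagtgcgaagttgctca

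Of 32851 RefSeq windows from 250 bases before to 50 bases after a start, 20.8% held TGACG and 7.15% held CACGTG on either strand. Windows of 6 of the 8 genes were in the table, 7 windows in all, and Ppp1r3b and Gys2 had no window there. The other match was TGACG in Pygl, on the strand opposite to the gene and 44 bases before the start. No window of these genes held the full element TGACGTCA (1.79% of all windows, each of which also holds TGACG), the D-box TTATGNAA (3.38%), the forkhead motif TGTTTAC (3.65%) or the glucocorticoid palindrome (0.00913%). In the GENCODE M21 annotation of GRCm38 Ppp1r3g spans chr13:35958839-35970388 and Ppp1r3c spans chr19:36731731-36736653. The RefSeq start of each therefore lies inside the annotated gene. The bases printed for Ppp1r3g lie wholly inside it and those for Ppp1r3c partly. The other 6 genes lie at chr8:35375739-35388139 (Ppp1r3b), chr6:142422613-142473109 (Gys2), chr11:21321138-21371201 (Ugp2), chr16:70313949-70569716 (Gbe1), chr12:70190811-70231488 (Pygl) and chrX:160502166-160598878 (Phka2) in the same annotation. All 8 are annotated as protein-coding, and the counts were made per gene symbol on the build mm9.

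Per kilobase of exon, Ugp2 had the highest mean level of the 8 genes in each group, at 104.5 ± 9.95, 103.0 ± 11.8, 82.7 ± 10.7 and 86.1 ± 11.1 CPM per kb in the labelled MCF10A/miR-122 EV, labelled MDA-MB-231 EV, MCF10A EV and PBS livers (SD, n = 6 each). Pygl and Gys2 came next. They overlapped in the labelled MCF10A/miR-122 EV livers, with Gys2 at 57.8 ± 16.2 and Pygl at 55.8 ± 9.64 CPM per kb, and in the labelled MDA-MB-231 EV livers, with Gys2 at 54.5 ± 5.04 and Pygl at 55.0 ± 6.89 CPM per kb. In the MCF10A EV livers Gys2 was at 31.7 ± 6.09 and Pygl at 56.5 ± 4.34 CPM per kb, and in PBS livers Gys2 was at 37.9 ± 11.7 and Pygl at 53.4 ± 4.09 CPM per kb, with Pygl above Gys2 in all 6 libraries of both groups. Gbe1 lay between 8.63 and 10.7 and Phka2 between 3.14 and 3.59 CPM per kb as group means. The group mean of Ppp1r3g was 16.0 ± 15.6, 8.55 ± 2.46, 2.12 ± 1.39 and 1.23 ± 1.18 CPM per kb in the same order of groups. It was the lowest of the 8 in MCF10A EV and PBS livers and above Phka2 in every library of the other 2 groups.

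**Figure D1:**
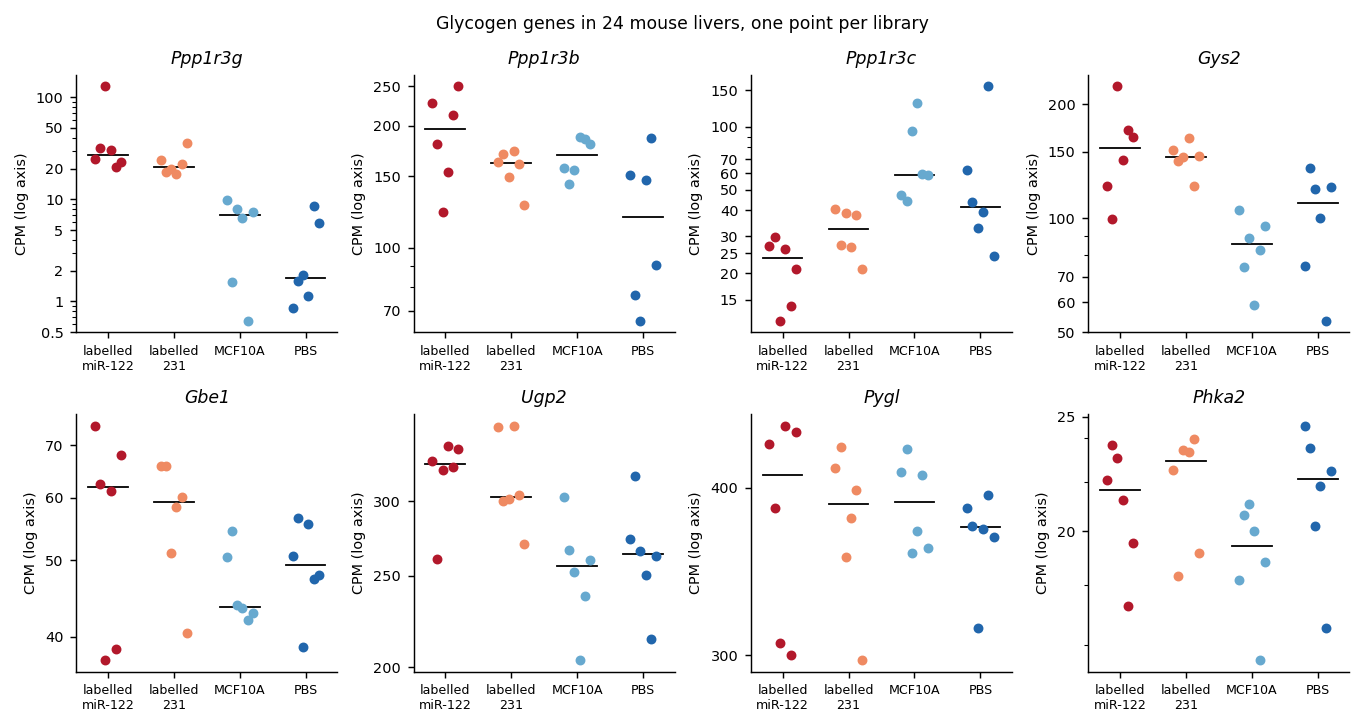
CPM on a log axis for each of the 8 genes, 1 point per library, 6 libraries per group, with the group median as a line. The labelled MCF10A/miR-122 EV and labelled MDA-MB-231 EV points of Ppp1r3g, from 17.9 to 128 CPM, lie above all MCF10A EV and PBS points, from 0.646 to 9.94 CPM.

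Ppp1r3g encodes a targeting subunit that in mouse liver is known to be induced during fasting and to promote glycogen storage after a meal. Its level ran from 20.7 to 128 CPM with a median of 27.4 CPM in the labelled MCF10A/miR-122 EV livers, from 17.9 to 35.6 CPM with a median of 20.95 CPM in the labelled MDA-MB-231 EV livers, from 0.646 to 9.94 CPM with a median of 7.03 CPM in the MCF10A EV livers and from 0.863 to 8.62 CPM with a median of 1.70 CPM in the PBS livers. Every library of both first-named groups was above every MCF10A EV and PBS library, while the 2 groups within each set overlapped. The counts behind these levels were 544 to 4044, 513 to 1009, 17 to 237 and 24 to 198 in the same order of groups. The fitted log2 fold change, by edgeR's quasi-likelihood test with Benjamini-Hochberg adjustment over the 13773 genes, was 3.73 (SE 0.59, adjusted p = 1.31e-04) for labelled MCF10A/miR-122 EV over PBS. It was 2.83 (SE 0.58, adjusted p = 0.00264) for labelled MDA-MB-231 EV over PBS. Against MCF10A EV livers it was 2.92 (SE 0.56, adjusted p = 9.25e-04) for the labelled MCF10A/miR-122 EV livers and 2.02 (SE 0.55, adjusted p = 0.0258) for the labelled MDA-MB-231 EV livers. The PBS libraries are shared by the first 2 of these comparisons and the MCF10A EV libraries by the last 2.

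An exact two-sided permutation test on log2(CPM + 0.5), with 924 assignments of 6 against 6 libraries, gave p = 0.00216 for each of these 4 comparisons. That is the smallest p it can give, and it was 0.00325 after adjustment over the 6 comparisons. Because the groups did not overlap in these 4, the permutation test could give no other p. It therefore restates the lack of overlap and adds no separate support. Within the sets, the fitted change was 0.81 (interval -0.38 to 2.003, adjusted p = 0.497) for MCF10A EV over PBS and -0.91 (interval -1.93 to 0.12, adjusted p = 0.705) for labelled MDA-MB-231 EV over labelled MCF10A/miR-122 EV, where the interval is 2 SE on either side. The exact permutation p was 0.37 and 0.165 for these 2 comparisons. The labelled MCF10A/miR-122 EV replicate 3 stood apart at 128 CPM, against 20.7 to 31.9 CPM in the other 5 libraries of its group, which averaged 26.1 ± 4.79 CPM (SD, n = 5). Without it the fold change over PBS was 8.06 (adjusted p = 3.26e-04), against 13.3 with it, and over MCF10A EV it was 4.63 (adjusted p = 0.00348), against 7.59 with it. For labelled MDA-MB-231 EV over labelled MCF10A/miR-122 EV the log2 fold change was -0.19 without it. The call for labelled MDA-MB-231 EV over MCF10A EV was lost without MCF10A EV replicate 2 (adjusted p = 0.0581) or without labelled MDA-MB-231 EV replicate 6 (adjusted p = 0.0556).

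In whole liver, fewer cells of a type and less RNA per cell cannot be told apart, here and for each gene below. Igfbp1, a hepatocyte gene for an insulin-like growth factor binding protein, was by Spearman correlation the gene whose levels moved most like Ppp1r3g within groups. The Spearman correlation of the 2 genes' deviations from their group means was 0.80, and Pearson's was 0.69, over 24 libraries and the highest Spearman value of 10358 genes compared. Labelled MCF10A/miR-122 EV replicate 3 held 724 CPM of Igfbp1, against a group mean of 219.7 ± 270.7 CPM (SD, n = 6). The next were Dpp9, a dipeptidyl peptidase gene, with 0.75 by both measures, and Tspan33, a tetraspanin gene, with 0.75 and 0.72. Between the sets, Dpp9 and Tspan33 went the other way from Ppp1r3g. For labelled MCF10A/miR-122 EV over MCF10A EV the log2 fold change by edgeR's test was -0.62 for Dpp9 (adjusted p = 1.94e-04). In the same comparison it was -0.72 for Tspan33 (adjusted p = 0.00135) and 1.46 for Igfbp1 (adjusted p = 0.117). For labelled MCF10A/miR-122 EV over PBS, Igfbp1 passed the test at 2.48 (adjusted p = 0.00997) and Dpp9 at -0.29 (adjusted p = 0.048). Tspan33 did not pass there, at -0.35. For labelled MDA-MB-231 EV over PBS none of these passed, at 1.75 for Igfbp1 (adjusted p = 0.0729), -0.25 for Dpp9 and -0.15 for Tspan33. The points of each correlation share libraries, their depth and their scaling.

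Ppp1r3c encodes the subunit called protein targeting to glycogen, which binds the synthase and the phosphorylase as well as the phosphatase. Its level ran from 11.9 to 29.8 CPM with a median of 23.6 CPM in the labelled MCF10A/miR-122 EV livers, from 21.1 to 40.6 CPM with a median of 32.7 CPM in the labelled MDA-MB-231 EV livers, from 44.3 to 129 CPM with a median of 59.2 CPM in the MCF10A EV livers and from 24.2 to 156 CPM with a median of 41.6 CPM in the PBS livers. All labelled MCF10A/miR-122 EV and labelled MDA-MB-231 EV libraries were below all MCF10A EV libraries, while both overlapped the PBS libraries, where replicate 5 was far above the rest. Ppp1r3c fell in the labelled MCF10A/miR-122 EV livers, with log2 changes of -1.46 (SE 0.36, adjusted p = 0.00679) over PBS and -1.75 (SE 0.37, adjusted p = 0.00195) over MCF10A EV. It fell for labelled MDA-MB-231 EV over MCF10A EV too, by 1.18 on the log2 scale (SE 0.36, adjusted p = 0.0443). The value for labelled MDA-MB-231 EV over PBS was -0.89 (interval -1.61 to -0.18, adjusted p = 0.104). Within the sets it was 0.28 (interval -0.43 to 0.99, adjusted p = 0.717) for MCF10A EV over PBS and 0.57 (interval -0.15 to 1.29, adjusted p = 0.753) for labelled MDA-MB-231 EV over labelled MCF10A/miR-122 EV.

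The PBS mean of 59.8 ± 49.0 CPM (SD, n = 6) rested on replicate 5, and without it the other 5 PBS libraries averaged 40.5 ± 14.2 CPM. The size of the fall over PBS depended on single libraries. In the 12 edgeR fits that left out 1 library, the log2 change ran from -1.62 to -0.905 for labelled MCF10A/miR-122 EV over PBS. The adjusted p was 0.0028 to 0.0296 in these fits. For labelled MDA-MB-231 EV over PBS it ran from -1.06 to -0.336, with an adjusted p of 0.0502 to 0.467. The call for labelled MDA-MB-231 EV over MCF10A EV was lost in 9 of the 12 fits that left out 1 library and held without MCF10A EV replicate 1, 2 or 6. It was also lost with robust dispersion estimation (adjusted p = 0.0653). The genes whose deviations were most like those of Ppp1r3c were Stat5a, a transcription factor gene of growth hormone signalling, with a Spearman correlation of 0.88 and a Pearson correlation of 0.85, Pnkd with 0.85 and 0.83, and Chst13, a carbohydrate sulfotransferase gene, with 0.79 and 0.77, all over 24 libraries. Stat5a itself averaged 12.9 ± 1.91 CPM in the labelled MCF10A/miR-122 EV livers and 21.4 ± 4.15 CPM in the PBS livers (SD, n = 6 each).

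Ppp1r3b encodes the liver subunit known as GL, whose activity on the synthase is blocked by the active phosphorylase. Its level ran from 122.5 to 249.97 CPM with a median of 196 CPM in the labelled MCF10A/miR-122 EV livers, from 127 to 174 CPM with a median of 162 CPM in the labelled MDA-MB-231 EV livers, from 144 to 188 CPM with a median of 169 CPM in the MCF10A EV livers and from 66.2 to 186 CPM with a median of 119 CPM in the PBS livers. Relative to the mean, the PBS livers were the most spread out, with an SD of 40.5% of the mean, against 25.0% in the labelled MCF10A/miR-122 EV livers. The PBS livers overlapped every other group, with 3 libraries below 100 CPM and the other 3 near 150 CPM or above. Ppp1r3b rose in the labelled MCF10A/miR-122 EV livers over PBS, by 0.68 (SE 0.20, adjusted p = 0.0198) on the log2 scale. This call was lost without labelled MCF10A/miR-122 EV replicate 6 (adjusted p = 0.0553) and with only the 12 libraries compared in the fit (adjusted p = 0.0873). Over PBS the values were 0.40 (interval 0.00063 to 0.79, adjusted p = 0.1998) for the labelled MDA-MB-231 EV livers and 0.49 (interval 0.10 to 0.89, adjusted p = 0.201) for the MCF10A EV livers. In the MCF10A EV livers it was called without PBS replicate 5, at 0.66 with an adjusted p of 0.0413. Over MCF10A EV the values were 0.18 (interval -0.21 to 0.58, adjusted p = 0.575) for the labelled MCF10A/miR-122 EV livers and -0.10 (interval -0.49 to 0.30, adjusted p = 0.828) for the labelled MDA-MB-231 EV livers, and for labelled MDA-MB-231 EV over labelled MCF10A/miR-122 EV the value was -0.28 (interval -0.67 to 0.11, adjusted p = 0.786). The genes with the most similar deviations were Rnf170 with a Spearman correlation of 0.76, Irf9 with 0.75 and Mast3 with 0.73.

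Of the summed CPM per kb of the 3 targeting subunits, Ppp1r3g made up 27.0 ± 19.7% in the labelled MCF10A/miR-122 EV livers, 18.9 ± 6.45% in the labelled MDA-MB-231 EV livers, 3.81 ± 2.73% in the MCF10A EV livers and 3.11 ± 2.83% in the PBS livers (SD, n = 6 each). Ppp1r3c made up 15.1 ± 6.01%, 25.6 ± 5.11%, 46.0 ± 9.13% and 48.5 ± 10.9% in the same order, and Ppp1r3b 57.9 ± 16.8%, 55.5 ± 5.55%, 50.2 ± 9.13% and 48.4 ± 10.3%. In the labelled MCF10A/miR-122 EV replicate 3 Ppp1r3g made up 66.4%, the highest share of any library. The ratio of Ppp1r3b counts to Ppp1r3c counts, chosen after the values were seen and so not tested, ran from 5.87 to 15.3 in the labelled MCF10A/miR-122 EV livers, 3.83 to 6.52 in the labelled MDA-MB-231 EV livers, 1.45 to 3.32 in the MCF10A EV livers and 1.19 to 3.75 in the PBS livers. The 2 sets of libraries did not overlap in this ratio.

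**Figure D2:**
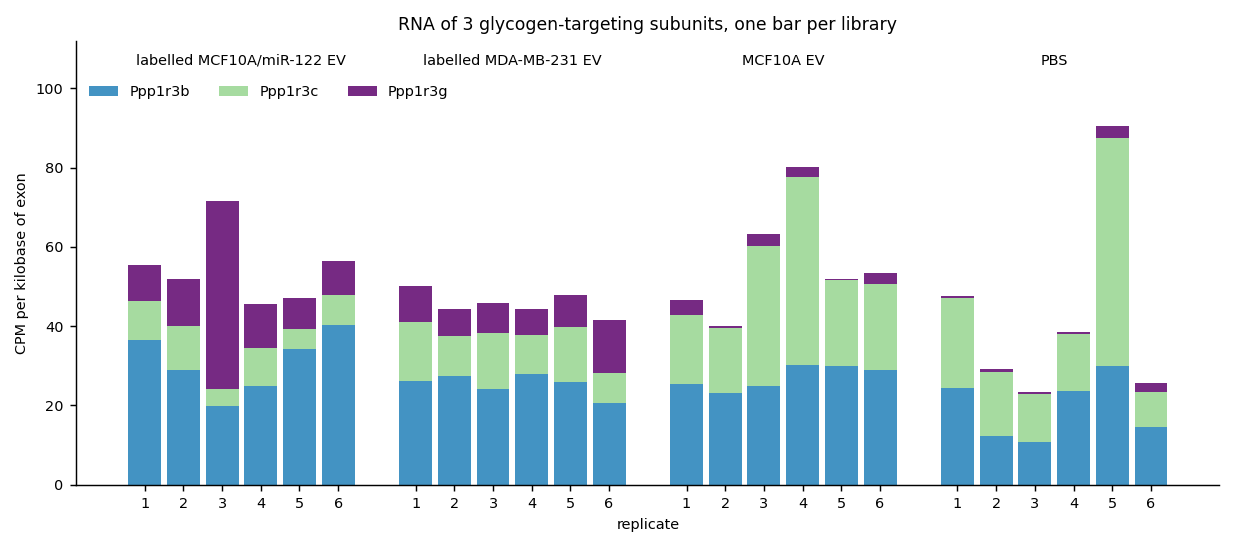
CPM per kilobase of exon of the 3 phosphatase targeting subunits, stacked in 1 bar per library, with 6 libraries per group. Ppp1r3g makes up 66.4% of the bar of labelled MCF10A/miR-122 EV replicate 3 and 0.462 to 7.93% of the MCF10A EV bars, and PBS replicate 5 has the tallest Ppp1r3c part.

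Among the enzymes of synthesis, Gys2, which makes the liver form of glycogen synthase, ran from 99.6 to 223 CPM with a median of 153 CPM in the labelled MCF10A/miR-122 EV livers, from 121.9 to 163 CPM with a median of 145 CPM in the labelled MDA-MB-231 EV livers, from 59.2 to 105 CPM with a median of 85.5 CPM in the MCF10A EV livers and from 53.7 to 136 CPM with a median of 109.8 CPM in the PBS livers. All labelled MDA-MB-231 EV libraries were above all MCF10A EV libraries, and the other pairs of groups overlapped. Gys2 rose over MCF10A EV by 0.87 (SE 0.19, adjusted p = 0.00274) on the log2 scale in the labelled MCF10A/miR-122 EV livers and by 0.78 (SE 0.19, adjusted p = 0.0116) in the labelled MDA-MB-231 EV livers. Over PBS it rose by 0.61 (SE 0.19, adjusted p = 0.0272) in the labelled MCF10A/miR-122 EV livers. For labelled MDA-MB-231 EV over PBS the value was 0.52 (interval 0.14 to 0.90, adjusted p = 0.0712), for MCF10A EV over PBS -0.26 (interval -0.64 to 0.12, adjusted p = 0.490), and for labelled MDA-MB-231 EV over labelled MCF10A/miR-122 EV -0.09 (interval -0.46 to 0.29, adjusted p = 0.960). The call over PBS in the labelled MCF10A/miR-122 EV livers was lost without PBS replicate 1, 4 or 5 and without labelled MCF10A/miR-122 EV replicate 3, 5 or 6, and with only the 12 libraries compared in the fit (adjusted p = 0.0928). PBS replicate 5 was the lowest of all 24 libraries for Gys2, at 53.7 CPM, and the highest for Ppp1r3c.

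Ugp2, the UDP-glucose pyrophosphorylase gene, ran from 261 to 343 CPM with a median of 329 CPM in the labelled MCF10A/miR-122 EV livers, from 271 to 361 CPM with a median of 303 CPM in the labelled MDA-MB-231 EV livers, from 204 to 303 CPM with a median of 256 CPM in the MCF10A EV livers and from 214 to 319 CPM with a median of 264 CPM in the PBS livers. The groups overlapped in every pair. The changes that passed the test were small: Ugp2 rose by 0.34 (SE 0.098, adjusted p = 0.0201) on the log2 scale for labelled MCF10A/miR-122 EV over MCF10A EV, by 0.32 (SE 0.098, adjusted p = 0.0472) for labelled MDA-MB-231 EV over MCF10A EV, and by 0.28 (SE 0.098, adjusted p = 0.0494) for labelled MCF10A/miR-122 EV over PBS. When 1 library was left out, the call for labelled MCF10A/miR-122 EV over PBS held only without PBS replicate 2 or labelled MCF10A/miR-122 EV replicate 2, and for labelled MDA-MB-231 EV over MCF10A EV only without MCF10A EV replicate 1 or labelled MDA-MB-231 EV replicate 6. With no library of the comparison left out, each of these 2 calls was also lost under other settings (adjusted p = 0.0503 to 0.0856 for the first over 5 settings and 0.0527 to 0.057 for the second over 3). For labelled MCF10A/miR-122 EV over MCF10A EV it was lost only without MCF10A EV replicate 4 (adjusted p = 0.0562). The value for labelled MDA-MB-231 EV over PBS was 0.26 (interval 0.06 to 0.46, adjusted p = 0.0862). Within the sets it was -0.06 (interval -0.25 to 0.14, adjusted p = 0.793) for MCF10A EV over PBS and -0.02 (interval -0.22 to 0.18, adjusted p = 0.989) for labelled MDA-MB-231 EV over labelled MCF10A/miR-122 EV.

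Gbe1, the branching enzyme gene, ran from 37.4 to 74.1 CPM with a median of 61.9 CPM in the labelled MCF10A/miR-122 EV livers, from 40.5 to 65.9 CPM with a median of 59.3 CPM in the labelled MDA-MB-231 EV livers, from 41.9 to 54.4 CPM with a median of 43.7 CPM in the MCF10A EV livers and from 38.8 to 56.5 CPM with a median of 49.3 CPM in the PBS livers. The groups overlapped, and the labelled MCF10A/miR-122 EV livers were the most spread out, with replicates 3 and 5 below 40 CPM. No comparison passed the test. The fitted log2 values were 0.20 (interval -0.09 to 0.50, adjusted p = 0.360) for labelled MCF10A/miR-122 EV over PBS and 0.20 (interval -0.09 to 0.50, adjusted p = 0.394) for labelled MDA-MB-231 EV over PBS. Over MCF10A EV they were 0.30 (interval 0.01 to 0.60, adjusted p = 0.168) for the labelled MCF10A/miR-122 EV livers and 0.30 (interval 0.01 to 0.60, adjusted p = 0.227) for the labelled MDA-MB-231 EV livers. Within the sets they were -0.10 (interval -0.40 to 0.20, adjusted p = 0.765) for MCF10A EV over PBS and -0.000631 (interval -0.30 to 0.29, adjusted p = 0.999) for labelled MDA-MB-231 EV over labelled MCF10A/miR-122 EV.

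Of the breakdown genes, Pygl, the liver glycogen phosphorylase gene, ran from 300.1 to 445 CPM with a median of 409 CPM in the labelled MCF10A/miR-122 EV livers, from 298 to 429 CPM with a median of 389 CPM in the labelled MDA-MB-231 EV livers, from 357 to 428 CPM with a median of 390.0 CPM in the MCF10A EV livers and from 315 to 395 CPM with a median of 374 CPM in the PBS livers. All groups overlapped. Its log2 fold change was 0.06 (interval -0.14 to 0.27, adjusted p = 0.718) for labelled MCF10A/miR-122 EV over PBS, 0.04 (interval -0.16 to 0.24, adjusted p = 0.834) for labelled MDA-MB-231 EV over PBS and 0.08 (interval -0.12 to 0.28, adjusted p = 0.719) for MCF10A EV over PBS. Over MCF10A EV it was -0.02 (interval -0.22 to 0.19, adjusted p = 0.931) for the labelled MCF10A/miR-122 EV livers and -0.04 (interval -0.24 to 0.16, adjusted p = 0.869) for the labelled MDA-MB-231 EV livers. Phka2, for the alpha subunit of phosphorylase kinase, ran from 17.3 to 23.7 CPM with a median of 21.7 CPM in the labelled MCF10A/miR-122 EV livers, from 18.3 to 23.9 CPM with a median of 22.9 CPM in the labelled MDA-MB-231 EV livers, from 15.5 to 21.1 CPM with a median of 19.4 CPM in the MCF10A EV livers and from 16.5 to 24.6 CPM with a median of 22.2 CPM in the PBS livers. These groups overlapped as well. Its log2 fold change was -0.03 (interval -0.22 to 0.17, adjusted p = 0.890) for labelled MCF10A/miR-122 EV over PBS, 0.02 (interval -0.18 to 0.21, adjusted p = 0.932) for labelled MDA-MB-231 EV over PBS and -0.18 (interval -0.37 to 0.02, adjusted p = 0.356) for MCF10A EV over PBS. The intervals of both genes over PBS lie within 1.5-fold in either direction. Over MCF10A EV the Phka2 value was 0.15 (interval -0.04 to 0.35, adjusted p = 0.314) for the labelled MCF10A/miR-122 EV livers and 0.19 (interval -0.0016 to 0.39, adjusted p = 0.245) for the labelled MDA-MB-231 EV livers. For labelled MDA-MB-231 EV over labelled MCF10A/miR-122 EV it was -0.02 (interval -0.22 to 0.18, adjusted p = 0.989) for Pygl and 0.04 (interval -0.15 to 0.24, adjusted p = 0.961) for Phka2. Of the exon bases of Phka2, 115 (1.9%) overlap the antisense gene Gm15243, and 78 bases of Ugp2 (2.54%) overlap Gm12043 on the other strand, so that counts from these stretches cannot be assigned without the strand setting of the counting.

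In the labelled MCF10A/miR-122 EV livers over PBS, 5 of the 8 genes passed the test, 4 higher and 1 lower, where 17.9% of all tested genes did (8.35% higher and 9.53% lower). In the labelled MDA-MB-231 EV livers over PBS it was 1 of 8, Ppp1r3g, where 11.7% of all genes passed (5.33% higher and 6.34% lower). Over MCF10A EV, 4 of 8 passed in the labelled MCF10A/miR-122 EV livers and 4 of 8 in the labelled MDA-MB-231 EV livers, 3 higher and 1 lower in both, where 16.2% of all genes passed for the labelled MCF10A/miR-122 EV livers (7.53% higher and 8.71% lower) and 7.68% for the labelled MDA-MB-231 EV livers (3.24% higher and 4.44% lower). These were Ppp1r3g, Ppp1r3c, Gys2 and Ugp2 in both. The comparisons that share MCF10A EV or PBS libraries are not independent of each other. The median log2 fold change of the 8 genes was 0.24 for labelled MCF10A/miR-122 EV over PBS, 0.23 for labelled MDA-MB-231 EV over PBS, 0.24 for labelled MCF10A/miR-122 EV over MCF10A EV and 0.25 for labelled MDA-MB-231 EV over MCF10A EV, and over all tested genes it lay between -0.00387 and 0.00346 in these 4. The 12 hepatocyte markers had medians near those of the 8 genes over PBS, at 0.24 and 0.21, with 3 higher and 0 lower in both. Over MCF10A EV the marker medians were -0.019 and -0.022.

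Within the sets no gene of the 8 passed edgeR's test. For MCF10A EV over PBS, 1.07% of all genes passed (0.37% higher and 0.697% lower), and 1 of the 8 had an unadjusted p under 0.05, Ppp1r3b. For labelled MDA-MB-231 EV over labelled MCF10A/miR-122 EV, 0.254% of all genes passed (0.0436% higher and 0.211% lower), and 0 of the 8 had an unadjusted p under 0.05. DESeq2 and limma-voom called 0 of the 8 in both comparisons. The groups did not overlap for 1 gene, Ppp1r3g, in the labelled MCF10A/miR-122 EV and in the labelled MDA-MB-231 EV livers against PBS, where 5.88% and 6.22% of all genes did not overlap. Against MCF10A EV they did not overlap for 2 genes in the labelled MCF10A/miR-122 EV livers, Ppp1r3g and Ppp1r3c (5.63% of all genes), and for 3 genes in the labelled MDA-MB-231 EV livers, these and Gys2 (5.05% of all genes). Within the sets every one of the 8 overlapped, where 0.9% of all genes did not overlap for MCF10A EV over PBS and 0.733% did not for labelled MDA-MB-231 EV over labelled MCF10A/miR-122 EV.

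**Figure D3:**
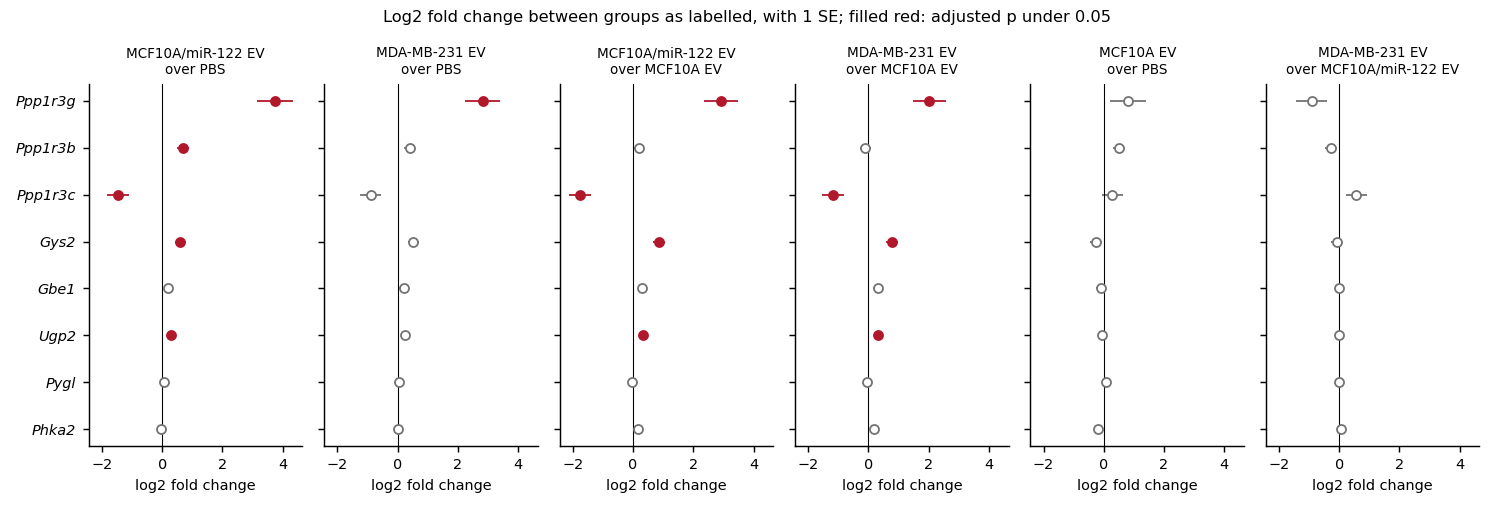
Fitted log2 fold change of the 8 genes in the 6 comparisons between groups as labelled, with 1 SE as the bar, filled red where the adjusted p was under 0.05. Ppp1r3g has the highest values over PBS, at 3.73 and 2.83, and the panels of the 2 comparisons within a set hold no filled point.

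Some pairs of the 8 genes varied together among livers of the same group. Over the 24 libraries, deviations from the group means in log2 CPM were most alike for Pygl and Gbe1, with a Spearman correlation of 0.83 and a Pearson correlation of 0.91. Ppp1r3c and Gys2 moved in opposite directions, with -0.67 and -0.79, as did Ppp1r3b and Gys2 with -0.50 and -0.62. Gys2 and Ugp2 had 0.50 and 0.67, and Ppp1r3b and Ppp1r3c had 0.46 and 0.57. The Spearman correlations of Ppp1r3g with the other 7 genes ran from -0.33 to 0.17. These values describe libraries that share their scaling and depth, and no test was made. The labelled MCF10A/miR-122 EV replicates 3 and 5 were the lowest of their group for both Pygl (306 and 300 CPM) and Gbe1 (37.4 and 38.6 CPM). They were also the lowest for Ppp1r3c (11.9 and 13.9 CPM) and the highest for Gys2 (223 and 171 CPM).

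**Figure D4:**
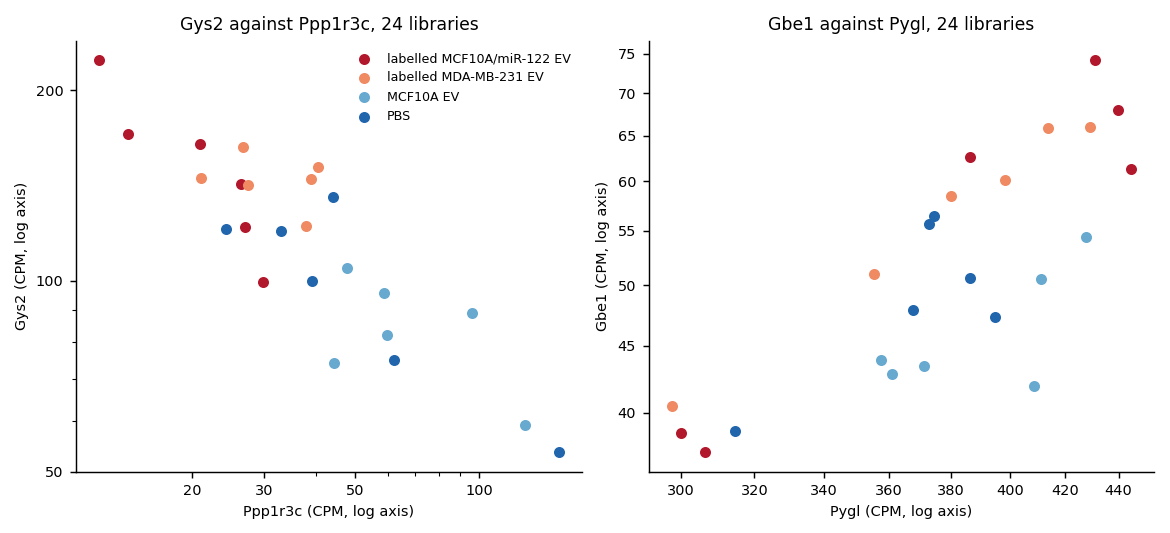
Levels in CPM on log axes of Gys2 against Ppp1r3c (left) and of Gbe1 against Pygl (right), 1 point per library, 24 libraries, coloured by group. Libraries with more Ppp1r3c have less Gys2, down to 53.7 CPM in PBS replicate 5, and libraries with more Pygl have more Gbe1. The correlations in the text are of deviations from the group means, not of these levels.

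Of 25 further genes of glycogen metabolism, 24 were tested, and Ppp1r3a, the muscle targeting subunit, had 0 counts in every library, which at 3 counts allows up to 0.0865 to 0.14 CPM by library. Among the 24, 2 passed the test higher and 2 lower in the labelled MCF10A/miR-122 EV livers over PBS, a share near the 17.9% of all tested genes, and 1 higher and 2 lower in the labelled MDA-MB-231 EV livers over PBS, near the 11.7% of all genes. Over MCF10A EV it was 3 higher and 1 lower in the labelled MCF10A/miR-122 EV livers, where 16.2% of all genes passed, and 3 higher and 1 lower in the labelled MDA-MB-231 EV livers, where 7.68% did. The median log2 fold change of the 24 was 0.02, -0.01, 0.09 and 0.04 in these 4 comparisons. None passed in either comparison within a set by edgeR's test. The gene with the smallest p in 3 of these 4 comparisons was Stbd1, which encodes a glycogen-binding protein thought to carry glycogen to lysosomes. It averaged 58.7 ± 4.95 CPM in the labelled MCF10A/miR-122 EV livers, 70.3 ± 6.97 CPM in the labelled MDA-MB-231 EV livers, 39.1 ± 5.62 CPM in the MCF10A EV livers and 45.0 ± 8.38 CPM in the PBS livers (SD, n = 6 each). Its log2 fold change was 0.38 (SE 0.11, adjusted p = 0.0155) for labelled MCF10A/miR-122 EV over PBS and 0.64 (SE 0.11, adjusted p = 4.40e-04) for labelled MDA-MB-231 EV over PBS.

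Nhlrc1, the malin ubiquitin ligase gene that is mutated in human Lafora disease, fell by 0.66 on the log2 scale in the labelled MCF10A/miR-122 EV livers over PBS (adjusted p = 0.00143) and by 0.43 in the labelled MDA-MB-231 EV livers over PBS (adjusted p = 0.0336). It was low, at 1.77 ± 0.320, 2.07 ± 0.276 and 2.80 ± 0.206 CPM in the labelled MCF10A/miR-122 EV, labelled MDA-MB-231 EV and PBS livers (SD, n = 6 each). Gys1, the muscle glycogen synthase gene, was at 2.24 ± 0.286, 1.87 ± 0.166 and 2.93 ± 0.277 CPM in the same order, with -0.39 (SE 0.12, adjusted p = 0.0245) and -0.65 (SE 0.12, adjusted p = 0.00113) over PBS. Gsk3b, whose kinase phosphorylates and inactivates glycogen synthase, rose over MCF10A EV by 0.36 (SE 0.07, adjusted p = 0.00109) in the labelled MCF10A/miR-122 EV livers and by 0.29 (SE 0.07, adjusted p = 0.0142) in the labelled MDA-MB-231 EV livers. Pgm2l1, a glucose bisphosphate synthase gene, rose over MCF10A EV by 0.72 (SE 0.17, adjusted p = 0.00452) and 0.61 (SE 0.17, adjusted p = 0.0260) in the same order.

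Of 10 genes that make, use or carry glucose 6-phosphate and glucose, 2 rose in the labelled MCF10A/miR-122 EV livers over PBS and 2 in the labelled MDA-MB-231 EV livers over PBS, Slc37a4 and Slc2a2 in both, with none lower, where 17.9% and 11.7% of all genes passed. Slc37a4, the transporter of glucose 6-phosphate into the endoplasmic reticulum, averaged 198 ± 28.7 CPM in the labelled MCF10A/miR-122 EV livers, 175 ± 12.2 CPM in the labelled MDA-MB-231 EV livers and 124 ± 28.4 CPM in the PBS livers (SD, n = 6 each). Its log2 fold change over PBS was 0.67 (SE 0.12, adjusted p = 2.96e-04) and 0.50 (SE 0.12, adjusted p = 0.00661). Slc2a2, the hepatocyte glucose transporter GLUT2, averaged 249.5 ± 48.0, 247 ± 23.6 and 180.0 ± 25.2 CPM in the same groups, with 0.47 (SE 0.11, adjusted p = 0.00461) and 0.46 (SE 0.11, adjusted p = 0.00875). Over MCF10A EV, Slc2a2, Slc37a4 and Hk3, a hexokinase gene, rose in the labelled MCF10A/miR-122 EV livers and Slc2a2 in the labelled MDA-MB-231 EV livers.

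Genes known to follow fasting and insulin, the circadian clock or glucocorticoids were counted in the same comparisons. In the labelled MCF10A/miR-122 EV livers over PBS, where 17.9% of all genes passed the test, 8 of 16 fasting and insulin genes were higher, 5 of 13 clock genes were higher and 2 lower, and 5 of 8 glucocorticoid targets were higher. In the labelled MDA-MB-231 EV livers over PBS (11.7% of all genes) it was 5 fasting and insulin genes higher, 3 clock genes higher and 2 lower, and 2 glucocorticoid targets higher. In the labelled MCF10A/miR-122 EV livers over MCF10A EV (16.2% of all genes) it was 4 fasting and insulin genes higher and 1 lower, 8 clock genes higher and 3 lower, and 5 glucocorticoid targets higher. In the labelled MDA-MB-231 EV livers over MCF10A EV (7.68% of all genes) it was 2 fasting and insulin genes higher, 9 clock genes higher and 2 lower, and 1 glucocorticoid target higher. For MCF10A EV over PBS (1.07% of all genes) 1 fasting and insulin gene and 1 glucocorticoid target were higher and 3 clock genes were lower. For labelled MDA-MB-231 EV over labelled MCF10A/miR-122 EV (0.254% of all genes) edgeR's test called 0 genes of these lists. Of 10 macrophage markers, 6 were higher in the labelled MCF10A/miR-122 EV livers over PBS and 8 over MCF10A EV, with summed levels of 294 to 695 CPM in the labelled MCF10A/miR-122 EV livers and 272 to 339 CPM in the PBS livers, and 3 were lower in the labelled MDA-MB-231 EV livers over the labelled MCF10A/miR-122 EV livers. The 695 CPM was labelled MCF10A/miR-122 EV replicate 3, and the rest of that group ran from 294 to 437 CPM. Macrophage markers in the labelled MDA-MB-231 EV livers over PBS passed for 0 of 10. Skeletal muscle markers summed to at most 6.16 CPM in any library. The part of these states and cells in the values of the glycogen genes was not tested.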

How the data were processed

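RNA was measured in livers of 24 mice, 6 per treatment label. Per the labels' protocols, TRIZOL was used for extraction and a stranded Kapa mRNA kit for the libraries. The authors deposited raw read counts per gene symbol, without normalization. The submitters' processing notes name bcl2fastq 2.18.0.12, TopHat2 and the build mm9. Which program counted the reads, with what annotation and strand setting, is not given in the sources used here. Library totals were 21336818 to 33732639 counts.

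The 27 rows that share 11 symbols (0.0744% of counts) were left out. Counts were scaled by TMM factors, filtered with filterByExpr and fitted over all 24 libraries and 4 groups with edgeR 4.0.16 (quasi-likelihood F test, R 4.3.3). The 6 comparisons were adjusted by Benjamini-Hochberg over 13773 genes, with a threshold of 0.05. SE is the absolute log2 fold change divided by the square root of F. CPM uses TMM-scaled totals, and CPM per kb divides by the union of GENCODE M21 exons. Ppp1r3g was also tested by an exact permutation test. P-values set a difference between groups against the spread among livers within groups. In the 4 comparisons between sets they cannot separate treatment from set.

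The genes and lists were chosen with earlier results of these data known. Named genes outside the 8 are the list members past the threshold with the smallest p (at most 4 per list and comparison) and, for each targeting subunit, the 3 genes of at least 1 log2 CPM with the most similar deviations. The fit was tested on simulated data. Alternatives were RLE size factors, DESeq2 1.42.0, limma-voom (limma 3.58.1), no filter, a filter of 1 CPM in 12 libraries, robust estimation, only the 12 libraries compared, a replicate block, the identities of the library names, and each library left out.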

Additional observations from a re-analysis of the deposited data

Results flagged for a closer look

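In each group of 6 libraries the highest or lowest value of each of the 8 genes was compared with its nearest neighbour by Dixon's ratio, and the 5 below exceeded its critical value. There were 32 groups of values, of which chance would single out about 1 in 20 if the values were normally distributed. The ratios were taken on CPM and not on the log scale, so the rate for these values is not known. Ppp1r3g in labelled MCF10A/miR-122 EV replicate 3 was at 128 CPM, next to 31.9 CPM, with a ratio of 0.896, and the same library had the highest Gys2 value of all 24 (223 CPM) and the highest Igfbp1 value (724 CPM). Its summed levels of macrophage markers (695 CPM), fasting and insulin genes (12168 CPM) and glucocorticoid targets (982 CPM) were also the highest of all 24. Ppp1r3g in labelled MDA-MB-231 EV replicate 6 was at 35.6 CPM, next to 24.4 CPM, with a ratio of 0.634. Ppp1r3c in PBS replicate 5 was at 156 CPM, next to 62.2 CPM, with a ratio of 0.712. Pygl in PBS replicate 3 was low at 315 CPM, next to 368 CPM, with a ratio of 0.661. Ugp2 in labelled MCF10A/miR-122 EV replicate 2 was low at 261 CPM, next to 324 CPM, with a ratio of 0.762. What set these libraries apart was not tested.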

How the results depend on the processing

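Of 384 values under other settings, 368 kept their direction and side of the threshold, and of 576 values with 1 library left out, 504 did. Most of these values belong to genes not called in the comparison, so the totals say little about how steady the calls were. Under other settings a call was lost in 11 values and gained in 2. With 1 library left out it was lost in 39 and gained in 3. For labelled MDA-MB-231 EV over PBS 2 of the 8 genes were called with DESeq2 and 2 with limma-voom, against 1 (Gys2 was added, adjusted p = 0.0486 and 0.0484), and for labelled MCF10A/miR-122 EV over PBS 2 with only the 12 libraries compared, against 5 (Ppp1r3b, Gys2 and Ugp2 were lost). Named by the library names instead, the 2 groups are exchanged: MCF10A/miR-122 EV over PBS had 1 call and MDA-MB-231 EV over PBS had 5. For Gbe1 in labelled MDA-MB-231 EV over labelled MCF10A/miR-122 EV, at -0.000631, the sign turned with limma-voom (0.0292), the stricter filter (0.00148) and the replicate block (0.019). Same-numbered libraries were slightly more alike than others, with a mean correlation of deviations of 0.0376 over 36 pairs against -0.0067 over 180 other pairs. Of 24 libraries, 4 were most alike to their own number. The replicate block lost Ugp2 for labelled MCF10A/miR-122 EV over PBS (0.284, adjusted p = 0.0534) and labelled MDA-MB-231 EV over MCF10A EV (0.319, adjusted p = 0.0527), leaving 4 and 3 calls. Ugp2 for labelled MCF10A/miR-122 EV over PBS was also lost with RLE size factors (adjusted p = 0.0503), no filter (0.07), the stricter filter (0.0537) and only the 12 libraries compared (0.0856), and Ugp2 for labelled MDA-MB-231 EV over MCF10A EV with no filter (0.057) and only the 12 libraries compared (0.0542). Over all genes, MCF10A EV over PBS had 147 calls, against 414 with DESeq2 and 27 with only 12 libraries, and labelled MDA-MB-231 EV over labelled MCF10A/miR-122 EV had 35, against 98 and 23. With 1 library left out, MCF10A EV over PBS had 26 (without PBS replicate 3) to 741 (without PBS replicate 5) and labelled MDA-MB-231 EV over labelled MCF10A/miR-122 EV 13 to 82.

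With 1 library left out, the number of the 8 genes called ranged from 0 to 1 for MCF10A EV over PBS (1 without PBS replicate 5), 2 to 5 for labelled MCF10A/miR-122 EV over PBS, 1 to 3 for labelled MDA-MB-231 EV over PBS (3 without PBS replicate 2), 3 to 4 for labelled MCF10A/miR-122 EV over MCF10A EV, 2 to 4 for labelled MDA-MB-231 EV over MCF10A EV and 0 to 0 for labelled MDA-MB-231 EV over labelled MCF10A/miR-122 EV. The log2 fold changes that changed sign were all uncalled. They ranged from -0.115 to 0.00355 for Ugp2 in MCF10A EV over PBS, -0.0897 to 0.0223 for Phka2 in labelled MCF10A/miR-122 EV over PBS, and -0.00776 to 0.102 for Pygl and -0.0467 to 0.0577 for Phka2 in labelled MDA-MB-231 EV over PBS. Pygl ranged from -0.0536 to 0.0555 in labelled MCF10A/miR-122 EV over MCF10A EV and from -0.0723 to 0.0215 in labelled MDA-MB-231 EV over MCF10A EV. In labelled MDA-MB-231 EV over labelled MCF10A/miR-122 EV the ranges were -0.185 to 0.0475 for Gys2, -0.0898 to 0.0393 for Pygl, -0.102 to 0.0872 for Gbe1, -0.0754 to 0.0203 for Ugp2 and -0.0143 to 0.0853 for Phka2. The causes were not tested.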

Other observations

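In 3 livers the highest Ppp1r3c and the lowest Gys2 value of a group fell together, and their levels of Dbp, Npas2, Per2 and Nr1d1, genes of the circadian clock, were as follows. PBS replicate 5, with 156 CPM of Ppp1r3c and 53.7 CPM of Gys2, had 3.57 CPM of Dbp and 12.4 CPM of Npas2, the lowest and the highest of its group. The other 5 PBS livers had 39.0 to 118 CPM of Dbp and 0.399 to 2.45 CPM of Npas2. In the MCF10A EV livers, replicate 4 had the highest Ppp1r3c value (129 CPM) and the lowest Gys2 value (59.2 CPM), with 2.20 CPM of Dbp and 12.1 CPM of Npas2, where the other 5 had 3.56 to 23.9 CPM of Dbp and 1.72 to 6.77 CPM of Npas2. The labelled MCF10A/miR-122 EV replicate 2 (29.8 CPM of Ppp1r3c and 99.6 CPM of Gys2) had 76.5 CPM of Dbp and 0.260 CPM of Npas2, which lie inside the range of its group (71.7 to 149 CPM and 0.0900 to 0.267 CPM). Per2 was the lowest of its group in PBS replicate 5 (11.9 CPM) but inside the range in MCF10A EV replicate 4 (18.9 CPM). Nr1d1 was inside the range in both, at 94.5 CPM in PBS replicate 5 and 80.3 CPM in MCF10A EV replicate 4. In labelled MCF10A/miR-122 EV replicate 2, Nr1d1 was the lowest of its group (65.4 CPM) and Per2 was inside the range (38.6 CPM). The time of day at which each liver was taken is not given in the labels. These libraries were chosen after their values were seen, and no test was made.

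The ratio of Gys2 to Pygl counts, also chosen after the values were seen, ran from 0.258 to 0.728 in the labelled MCF10A/miR-122 EV livers, 0.306 to 0.489 in the labelled MDA-MB-231 EV livers, 0.159 to 0.265 in the MCF10A EV livers and 0.136 to 0.380 in the PBS livers. The labelled MDA-MB-231 EV livers were all above the MCF10A EV livers in this ratio.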
